A study of Rattus norvegicus with 12 samples.

Results

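The genes described here build, cut, link and steer the actin cytoskeleton, the filament network with which cells crawl, hold their shape and pull on their surroundings. A list of 37 such genes was taken by symbol, from actin isoforms to the proteins that crosslink filaments and tie them to the membrane. The array held 32 of them on a probe set annotated with a single gene symbol, and all 32 passed the filter on dim probe sets. They stand among 10411 genes with a single-symbol probe set, of which 7720 passed the filter. Where a gene had several probe sets, the one with the highest mean signal stood for it. Actb, Actr3, Cfl1, Tmsb10 and Myl6 were present only on probe sets that list several symbols, so no value is given for them under their own names.

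RNA came from rat heart, named as ventricle in part of the labels, and was hybridised to 12 one-colour Affymetrix arrays in 4 groups of 3 rats. In the 2 d IR group the left anterior descending coronary artery (LAD) was closed for 30 min and reperfused for 2 days, and the 2 d sham rats had the surgery without occlusion and the same wait. The 7 d IR and 7 d sham rats differed from these in a wait of 7 days. Strain, sex, age and the sampled region of the ventricle are not stated in the labels. No genetic change or drug is named for any group, and rats are identified by the numbers in their labels. All 12 arrays had the same scaled mean signal (2% trimmed, 1500.4 to 1500.5) and medians between 637.3 and 719.0.

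Actin filaments grow when the Arp2/3 complex starts branches on existing filaments and profilin feeds in monomers, and they shrink when severing and capping proteins act on their ends. Crosslinkers bundle the filaments, ERM proteins (ezrin, radixin and moesin) tie them to the membrane, talin and vinculin tie them to integrins, and RhoA, Rac1 and Cdc42 switch these steps on. In the heart the non-muscle forms of these proteins are abundant in leukocytes, fibroblasts and vessel cells, while cardiomyocytes build sarcomeres from muscle paralogs. In a bulk sample of heart, fewer cells of a type and less RNA per cell cannot be told apart.

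Many actin genes are known targets of serum response factor (Srf), which binds the CArG box, a short AT-rich element flanked by C and G pairs. RefSeq promoter windows (GRCr8, 250 bases before to 50 bases after a start) were matched by symbol for 32 of the 37 genes, and Actb, Cap1, Capg, Actn4 and Rac1 had no window in the table. The exact CArG letters, searched on both strands, stood in 1 of the 36 windows of these genes (2.78%), that of Actg1, compared with 548 of all 33469 windows (1.64%). Among the muscle paralogs 3 of 12 windows held the box (Acta1, Actc1 and Myl3), and among a wider list of actin regulators 6 of 76 (7.89%; Cnn2, Fhl2, Rhoj, Rnd3 and Srf). The stretches below show the member with the box, its skeletal muscle paralog, Cnn2 (calponin 2, described with the regulators) and Srf itself, with the box in capitals and 25 bases on each side. They lie at chr10:106121007-106121066 (Actg1), chr19:68784254-68784313 (Acta1) and chr7:10370349-10370408 (Cnn2), all on the minus strand, and at chr9:21923970-21924049 (Srf, plus strand).
Actg1: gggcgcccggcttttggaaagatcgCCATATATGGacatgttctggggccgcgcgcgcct
Acta1: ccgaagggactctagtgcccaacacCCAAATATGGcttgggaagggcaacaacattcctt
Cnn2: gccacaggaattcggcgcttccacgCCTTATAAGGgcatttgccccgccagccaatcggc
Srf: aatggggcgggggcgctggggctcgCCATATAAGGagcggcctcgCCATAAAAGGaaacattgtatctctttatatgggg
The box starts 90 bases upstream of the annotated start in Actg1, 94 in Acta1 and 71 in Cnn2, and the Srf stretch holds boxes that start 81 and 61 bases upstream. A letter match describes the window and does not show that the factor binds there.

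An array in each of 2 groups stood apart from its own group. On the first principal component (39.0% of the variance) 2 d IR replicate 69 lay at -18.3 against 4.11 and -0.18 for the other 2 d IR arrays. The 7 d sham array of rat 82 had a value of 23.6 on the same axis, apart from the other 7 d sham arrays (1.06 and 1.14) and within the 17.7 to 25.3 of the 2 d sham arrays. The mean log2 signal of the 32 actin genes also set both arrays apart. The mean reached 13.21 in replicate 69, 12.80 and 12.90 in the other 2 d IR arrays, against 12.33, 12.41 and 12.58 in 2 d sham arrays. It was 13.05, 13.05 and 12.93 in 7 d IR arrays, against 12.73, 12.66 and 12.39 in 7 d sham arrays, with the last value from replicate 82. All IR arrays were above all sham arrays of either day on this mean. The array's beta-actin controls gave a 3′ over 5′ log2 signal ratio, a measure of RNA integrity, of 0.24 ± 0.07 on 2 d IR arrays and of 0.20 ± 0.10 on 2 d sham arrays (SD, n = 3 each; exact two-sided permutation p = 0.8). At 7 d the IR ratio of 0.18 ± 0.06 stood against a sham ratio of 0.57 ± 0.22 (SD, n = 3 each; exact permutation p = 0.1, the smallest that 3 against 3 allows), so the 7 d groups did not overlap on it. The part of RNA integrity in the 7 d changes was not tested.

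Averaged over both days, most actin genes were higher in IR than in sham hearts. In limma's group-means model, with Benjamini-Hochberg adjustment over all 10527 probe sets tested and an adjusted p under 0.05 as the threshold, 20 of the 32 genes rose in this mean IR effect and 1 fell. Over all probe sets 12.4% rose and 10.5% fell in that contrast. The median change of the 32 genes was 0.47 on the log2 scale, against 0.0055 for all probe sets, and the values ran from -0.22 (Vcl) to 1.22 (Cotl1). In all, 14 members passed in every one of the 12 fits without 1 array and under all 10 other settings tried, namely Actg1, Actr2, Arpc1b, Arpc3, Arpc5, Capg, Cotl1, Actn1, Msn, Marcks, Tpm3, Tpm4, Vim and Rhoa.

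Taken day by day, 11 of the 32 genes rose at 2 d and none fell (limma, adjusted p under 0.05), where 1.88% of all probe sets rose and 0.589% fell. At 7 d 9 rose and none fell, where 6.22% of all probe sets rose and 5.84% fell. The median change was 0.53 at 2 d and 0.39 at 7 d, against 0.0031 and 0.0073 for all probe sets. All 3 IR arrays were above all 3 sham arrays for 19 members at 2 d and 15 at 7 d, where 13.9% and 16.6% of all probe sets were. On both days 6 genes rose (Arpc1b, Arpc5, Capg, Cotl1, Msn and Tpm4), 5 at 2 d alone (Actr2, Arpc3, Actn1, Tpm3 and Rhoa) and 3 at 7 d alone (Marcks, Myh9 and Vim), and 18 passed on neither day. This split is for the main probe set of each gene and differed on others. On a further probe set Tpm3, Marcks, Cap1 and Iqgap1 rose on both days, and Actr2, Rhoa and Rac1 rose at 7 d. Cap1, Iqgap1 and Rac1 are among the 18. The sign of the change was the same on both days for all 32. These counts rested on single arrays. At 2 d the count was 0 without IR replicate 69, sham 71 or sham 72 and 6 without IR 76 or sham 74. At 7 d it was 0 without sham replicate 82, 2 without IR 44 or 47 and 5 without IR 48. Calls over all probe sets fell as well. At 2 d they numbered 260 in the main fit, 2 without IR 69, sham 71 or sham 72, 147 without IR 76 and 100 without sham 74. At 7 d they numbered 1270 in the main fit, 474 without IR 44, 502 without IR 47 and 893 without IR 48. With replicates 69 and 82 both left out, 6 genes passed at 2 d, 3 at 7 d and 15 in the mean effect. Calls over all probe sets are not given here for that fit or for the fit without sham 82. Whether the loss of member calls in those fits exceeded that of all probe sets therefore cannot be read from these counts.

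**Figure D1:**
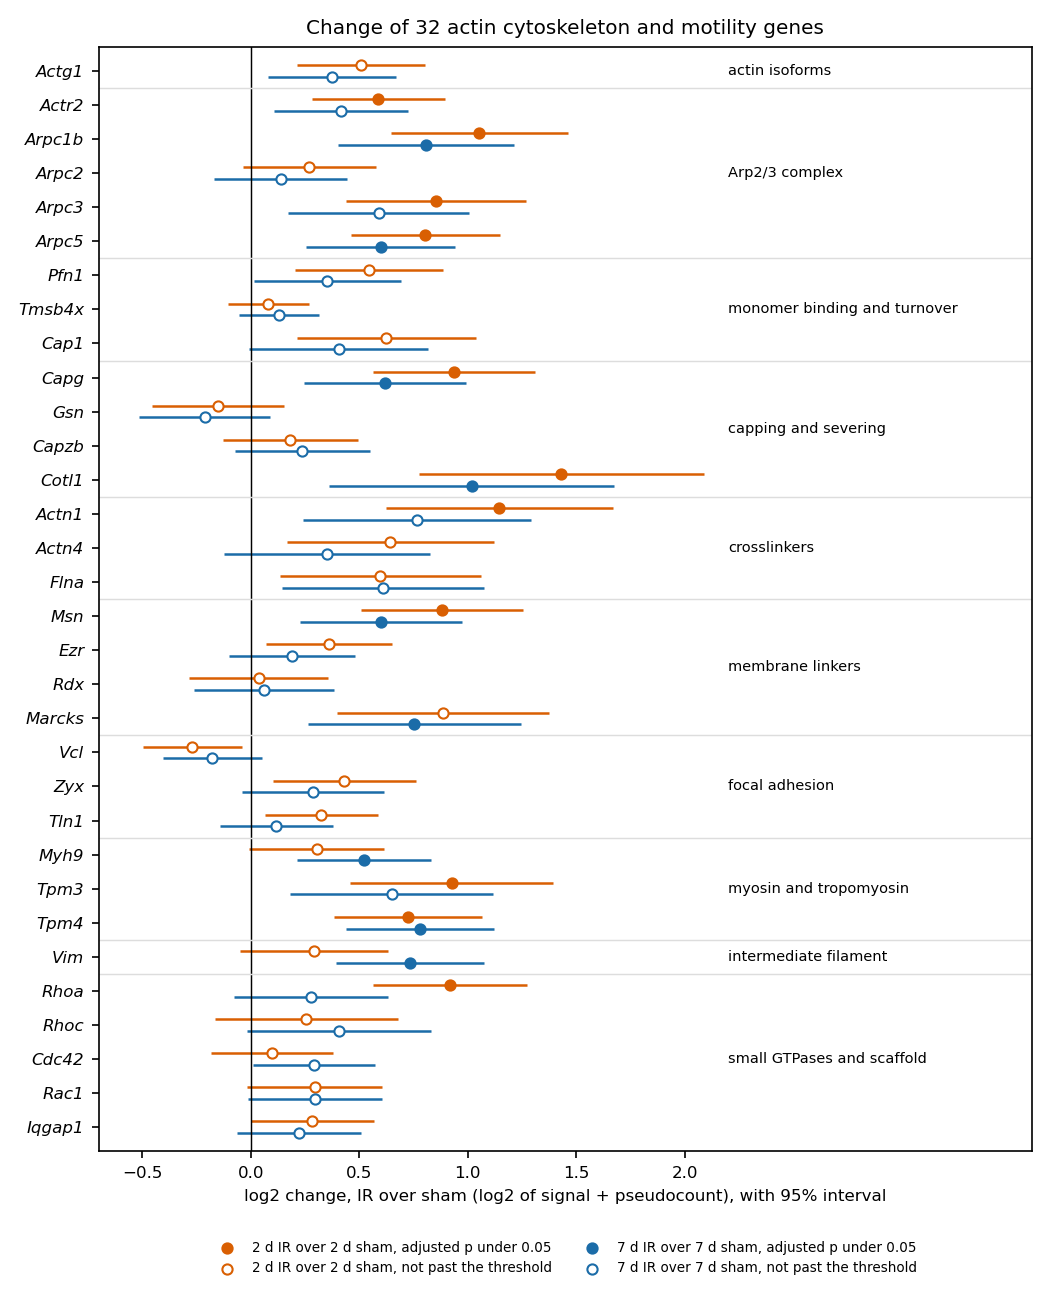
Change of each of the 32 actin genes on the x axis, as log2 of signal plus a pseudocount in IR minus sham, with the 95% interval as a line; orange marks 2 d and blue 7 d, and filled points passed an adjusted p of 0.05. Cotl1, Actn1 and Arpc1b lie farthest to the right at 2 d (1.43, 1.15 and 1.05), and Gsn and Vcl are the members left of 0 on both days.

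Actg1 encodes the cytoplasmic gamma-actin that, with beta-actin, makes up non-muscle filaments. Its signal (probe set 1371327_a_at) was between 27081 and 32426 in 2 d IR arrays, against 20898 to 21864 in 2 d sham arrays, with no overlap. In 7 d hearts it was between 30566 and 33633 in IR arrays, against 21279 to 32381 in sham arrays, and the groups overlapped through 7 d sham replicate 80. The change was 0.51 ± 0.14 (log2, SE) at 2 d and 0.38 ± 0.14 at 7 d, with adjusted p = 0.0614 and 0.0903 in limma, and 0.44 ± 0.10 in the mean effect (adjusted p = 0.0062). The array's own 3′ beta-actin control, which was not part of the tested set, read 41824, 35578 and 34964 in 2 d IR arrays, against 22897, 25418 and 28516 in 2 d sham arrays. The 7 d readings were 45435, 42953 and 38698 in IR arrays, against 35611, 31314 and 23918 in sham arrays. All IR arrays were above the sham arrays of their day on that control, which is given as a description.

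Of the 5 Arp2/3 subunits measured, 4 rose at 2 d, 2 at 7 d and 4 in the mean effect, and all 5 changes were positive on both days. Arpc1b, a subunit that binds activators of the complex, had the largest of them. Its signal (1386925_at) was 11369, 7511 and 9164 in 2 d IR arrays, against 3974, 4237 and 4859 in 2 d sham arrays. It was 11525, 11406 and 8480 in 7 d IR arrays, against 6852, 6802 and 4270 in 7 d sham arrays, the last from replicate 82. The groups did not overlap on either day, and the rise was 1.05 ± 0.19 (log2, SE; 2.07-fold; adjusted p = 0.0176) at 2 d and 0.81 ± 0.19 (1.75-fold; adjusted p = 0.0173) at 7 d. Arpc5, the smallest subunit, rose by 0.80 and 0.60 on the same scale. Actr2, the actin-related protein that seeds a branch with Actr3, and Arpc3 rose at 2 d (0.59 and 0.85) and had changes of 0.42 and 0.59 at 7 d, with adjusted p = 0.0733 and 0.0630. The dimmer Actr2 probe set (1375424_at) just missed the threshold at 2 d (0.78; adjusted p = 0.0505) and passed at 7 d (0.63; adjusted p = 0.0498). Arpc2, part of the core that grips the mother filament, had changes of 0.27 and 0.14 with overlapping groups, and did not pass on either day or in the mean effect (adjusted p = 0.166). Its dimmer probe set (1375137_at) had changes of 0.41 and 0.20, which did not pass either. Differences between subunits were not tested.

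On their main probe sets none of the 3 genes for monomer binding and turnover passed on either day, and 2 of them rose in the mean effect. Pfn1 (profilin 1, which charges monomers and delivers them to growing ends) averaged 15869 ± 3854 in 2 d IR and 10609 ± 712 in 2 d sham arrays, and 15013 ± 1230 in 7 d IR and 11775 ± 1729 in 7 d sham arrays (SD, n = 3 each). Its IR arrays were all above sham on both days, and its mean effect was 0.45 ± 0.11 (adjusted p = 0.0115). Cap1, which recycles monomers after disassembly, had a mean effect of 0.52 ± 0.14 (adjusted p = 0.0151), and its dimmer probe set (1368808_at) rose by 0.77 at 2 d (adjusted p = 0.0386) and 0.91 at 7 d (adjusted p = 0.0091). Tmsb4x (thymosin beta 4, the main monomer-sequestering peptide) did not pass in the main fit. It passed in 1 of 12 other settings at 7 d and in 1 of 10 for the mean effect. Its change reached 0.39 and 0.35 over those settings. It averaged 48627 ± 3263 in 2 d IR and 45929 ± 2447 in 2 d sham arrays, and 52235 ± 2198 in 7 d IR and 47709 ± 2775 in 7 d sham arrays (SD, n = 3 each), with a mean effect of 0.11 (95% interval -0.03 to 0.24). Signals of this size lie in the upper part of the array's range, which ended at 90743, and whether they were compressed was not tested.

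The capping and severing genes were split. Cotl1 (coactosin-like protein, a filament-binding protein abundant in leukocytes) had the largest change of all 32 members in each IR comparison. Its signal (1388596_at) was 5178, 2598 and 2794 in 2 d IR arrays, against 787, 1017 and 1726 in 2 d sham arrays. It was 2997, 3269 and 2771 in 7 d IR arrays, against 1704, 1980 and 761 in 7 d sham arrays. The highest 2 d IR value belonged to replicate 69 and the lowest 7 d sham value to replicate 82, yet the groups did not overlap on either day. The rise was 1.43 ± 0.31 (log2, SE; 2.70-fold; adjusted p = 0.0308) at 2 d and 1.02 ± 0.31 (2.03-fold; adjusted p = 0.045) at 7 d. Capg, which caps barbed ends without severing, rose by 0.94 ± 0.18 at 2 d (adjusted p = 0.0203) and 0.62 ± 0.18 at 7 d (adjusted p = 0.0354). Gsn (gelsolin, which severs filaments in the presence of calcium) had values of -0.15 and -0.21 with overlapping groups. Capzb, the beta subunit of the heterodimeric capping protein that muscle also uses at the Z-disc, had values of 0.18 and 0.24 and did not pass either.

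Among the crosslinkers, Actn1 rose at 2 d, none rose at 7 d and all 3 rose in the mean effect. Actn1, a non-muscle alpha-actinin that bundles stress fibres, read (1389189_at) 4503, 2444 and 2952 in 2 d IR arrays, against 1220, 1302 and 1503 in 2 d sham arrays, without overlap (1.15 ± 0.25; 2.21-fold; adjusted p = 0.0308). At 7 d it read 4505, 3540 and 2998 in IR arrays, against 3006, 2101 and 1353 in sham arrays. The lowest 7 d IR value lay just under the highest sham value there, and the change was 0.77 ± 0.25 (adjusted p = 0.0562). Its second probe set (1398294_at) gave 1.16 at 2 d (adjusted p = 0.0285) and 0.77 at 7 d (adjusted p = 0.0532). Actn4, the other non-muscle alpha-actinin, and Flna (filamin A, which makes orthogonal networks) had mean effects of 0.50 (adjusted p = 0.0344) and 0.60 (adjusted p = 0.0125). The Actn4 call was kept in 4 of the 12 fits without 1 array and in 5 of 10 other settings.

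Among the membrane linkers, moesin passed on both days and Marcks at 7 d on their main probe sets. Msn (1371575_at) read 12594, 8291 and 8004 in 2 d IR arrays, against 5157, 4438 and 5561 in 2 d sham arrays. It read 9305, 9775 and 9240 in 7 d IR arrays, against 7609, 6214 and 4945 in 7 d sham arrays. The groups did not overlap on either day, and the rise was 0.88 ± 0.17 (adjusted p = 0.0263) at 2 d and 0.60 ± 0.17 (adjusted p = 0.0388) at 7 d. Its dimmer probe set (1368948_at) overlapped at 2 d and did not pass there (0.70; adjusted p = 0.197), and rose by 1.28 at 7 d (adjusted p = 0.0170). The other ERM genes did not pass. Ezr (ezrin, typical of epithelia) had changes of 0.36 and 0.19 and Rdx (radixin) of 0.04 and 0.06, and the sign of the Rdx value turned negative on both days when arrays were centred on their medians (-0.023 and -0.0098).

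Marcks, a protein kinase C substrate that shields membrane phosphoinositides and binds filaments, read (1373432_at) 3601, 2400 and 2360 in 2 d IR arrays, against 2009, 899 and 1460 in 2 d sham arrays. It read 5985, 4412 and 4398 in 7 d IR arrays, against 3079, 3100 and 2334 in 7 d sham arrays. IR was above sham without overlap on each day, and the values of both groups were higher at 7 d than at 2 d. The IR change was 0.89 ± 0.23 at 2 d (adjusted p = 0.0538) and 0.75 ± 0.23 at 7 d (adjusted p = 0.0461), and 4 further tested probe sets of Marcks were positive on both days. Of these, 1375523_at rose on both days in limma (0.84 and 0.69, adjusted p = 0.0285 and 0.0204). Probe set 1370949_at rose at 7 d alone (0.91, adjusted p = 0.0343), and the others did not pass. Between days, 7 d over 2 d was 0.79 ± 0.23 in IR hearts (adjusted p = 0.0766) and 0.92 ± 0.23 in sham hearts (adjusted p = 0.182).

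The focal adhesion genes held the single decrease. Vcl (vinculin, which reinforces talin at adhesions and in cardiomyocytes also sits at costameres and intercalated discs) was between 5379 and 6074 in 2 d IR arrays, against 6708 to 7195 in 2 d sham arrays, with no overlap. It was between 4981 and 5897 in 7 d IR arrays, against 5894 to 6589 in 7 d sham arrays, where the ranges touched. Neither day passed (-0.27 and -0.18; adjusted p = 0.163 and 0.299), and the mean effect fell by 0.22 with an adjusted p of 0.0449. That call was kept in 2 of the 12 fits without 1 array, and the second Vcl probe set (1375538_at) had values of -0.12 and -0.0089. Zyx (zyxin, recruited to tensed filaments) rose in the mean effect (0.36 ± 0.11; adjusted p = 0.0280), a call kept in 6 of the 12 fits without 1 array. Tln1 (talin 1, the integrin activator) had a mean effect of 0.22 (adjusted p = 0.0785).

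**Figure D2:**
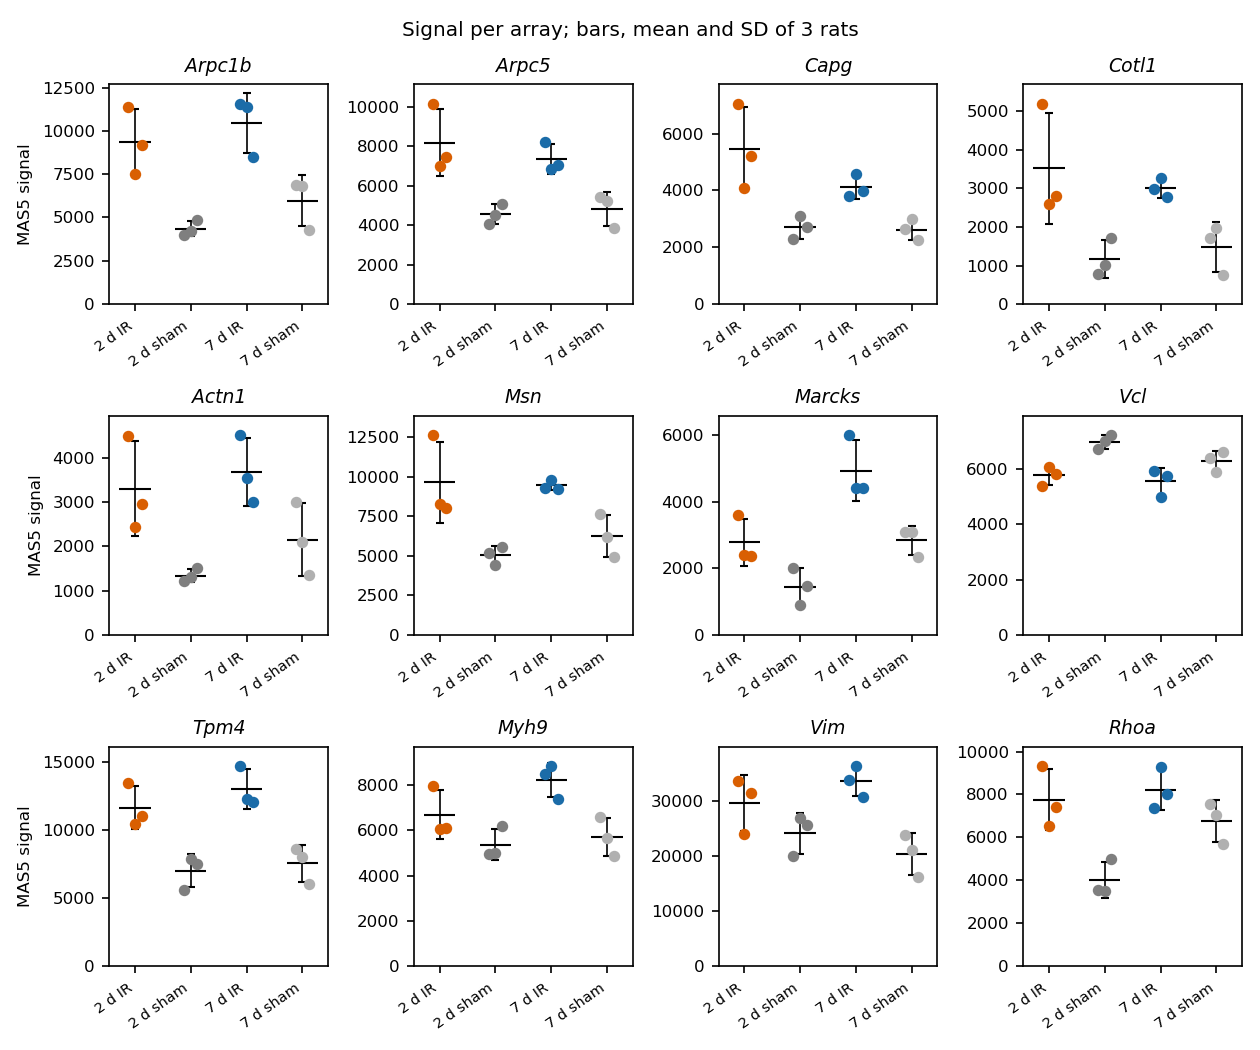
MAS5 signal (linear axis from 0) of 12 members in each array, as points, with the mean and SD of 3 rats per group as bars; groups run 2 d IR, 2 d sham, 7 d IR, 7 d sham. IR points lie above sham points of the same day for Arpc1b, Arpc5, Capg, Cotl1, Msn, Marcks and Tpm4 on both days, Vcl runs the other way, and Rhoa in 7 d sham arrays lies above its 2 d sham values.

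All 3 myosin and tropomyosin genes rose in the mean effect, 2 at 2 d and 2 at 7 d. Tpm4, a cytoplasmic tropomyosin of stress fibres, read (1371653_at) 13453, 10478 and 11060 in 2 d IR arrays, against 5628, 7891 and 7540 in 2 d sham arrays. It read 14702, 12320 and 12080 in 7 d IR arrays, against 8625, 8034 and 6030 in 7 d sham arrays. The groups were apart on both days and the rises were close in size, 0.72 ± 0.16 (adjusted p = 0.0342) and 0.78 ± 0.16 (adjusted p = 0.0105). Its dimmer probe set (1368838_at) rose by 1.33 ± 0.22 and 1.24 ± 0.22 (adjusted p = 0.0145 and 0.0076). Myh9, the heavy chain of a non-muscle myosin that pulls on filaments, had a change of 0.30 at 2 d with overlapping groups and rose by 0.52 ± 0.14 at 7 d (adjusted p = 0.032), where its signal was 7398 to 8832 in IR arrays against 4885 to 6581 in sham arrays.

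Tpm3 has muscle and non-muscle transcripts made by alternative promoters and splicing, and 11 probe sets on this array carry its symbol alone. The brightest (1370339_at) read 10122, 5606 and 6024 in 2 d IR arrays, against 2862, 3738 and 4319 in 2 d sham arrays, and rose by 0.93 ± 0.22 (adjusted p = 0.0431). Its 7 d signals were 8384, 7122 and 6162 in IR arrays, against 5067, 5190 and 3454 in sham arrays, without overlap (0.65 ± 0.22; adjusted p = 0.068). Of the 7 probe sets that passed the filter, all had positive changes at 2 d, from 0.31 to 2.58. The widest was on 1387918_at, which read 4627, 1972 and 2121 in 2 d IR arrays, against 156, 147 and 740 in 2 d sham arrays, and 3498, 3286 and 2311 in 7 d IR arrays, against 1149, 1717 and 649 in 7 d sham arrays. Its rise was 2.58 ± 0.39 (adjusted p = 0.0128) at 2 d and 1.30 ± 0.39 (adjusted p = 0.043) at 7 d, the first against 2 sham signals below the pseudocount of 195. Also higher on both days in limma were 1371239_s_at (1.23 and 1.04, adjusted p = 0.0269 and 0.0173) and 1398303_s_at (1.25 and 1.05, adjusted p = 0.0134 and 0.0088). Probe sets 1370340_x_at and 1371184_x_at were positive but passed on neither day. At the other end 1389846_at had changes of 0.31 and -0.15 and did not pass. Which transcripts each probe set reads is not annotated in the tables used here.

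**Figure D3:**
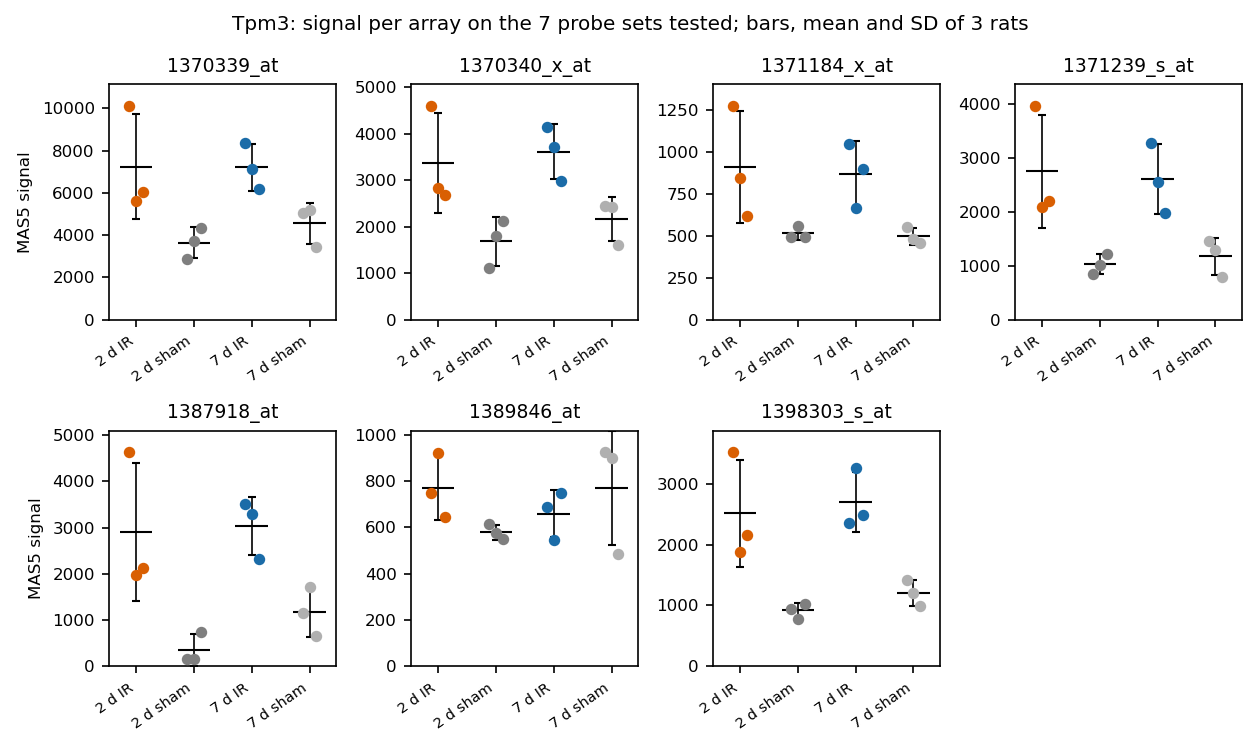
MAS5 signal (linear axis from 0) of each array on the 7 tested Tpm3 probe sets, with the mean and SD of 3 rats per group as bars; each panel has its own scale, and levels are not to be compared between panels. In 6 panels the 7 d IR arrays lie above the 7 d sham arrays, and on 1389846_at they do not; 1387918_at has the widest gap at 2 d.

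Vim (vimentin, the intermediate filament of mesenchymal cells and leukocytes) read (1367574_at) 33544, 23986 and 31362 in 2 d IR arrays, against 19915, 26860 and 25689 in 2 d sham arrays, and these groups overlapped. Its 7 d signals were 33889, 36267 and 30707 in IR arrays, against 23731, 21091 and 16146 in sham arrays, with a clear gap. The change was 0.29 ± 0.16 at 2 d (adjusted p = 0.314), and it rose by 0.74 ± 0.16 at 7 d (adjusted p = 0.0125). The test of the difference between the days did not pass for it (0.45 ± 0.23; adjusted p = 0.723).

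Among the GTPases and their scaffold 1 of 5 genes rose at 2 d, none at 7 d and 1 in the mean effect, all of these Rhoa. Rhoa, which drives stress fibres and contraction, read (1399027_at) 9305, 6549 and 7406 in 2 d IR arrays, against 3558, 3518 and 4989 in 2 d sham arrays, and rose by 0.92 ± 0.17 (1.89-fold; adjusted p = 0.0176). At 7 d it read 7366, 9259 and 8034 in IR arrays, against 7577, 7040 and 5674 in sham arrays, and the groups overlapped (0.28 ± 0.17; adjusted p = 0.295). Within IR hearts 7 d over 2 d was 0.09 ± 0.17 with overlapping arrays, while 7 d sham arrays lay above 2 d sham arrays without overlap (0.73 ± 0.17; adjusted p = 0.139). This sham difference passed without 7 d sham replicate 82 (adjusted p = 0.0432) and without it and 2 d IR replicate 69 together (adjusted p = 0.0262). The dimmer Rhoa probe set (1370130_at) was instead lower in 7 d than in 2 d sham arrays on average, with 3436, 2193 and 2365 in 2 d IR arrays, against 1796, 1667 and 2205 in 2 d sham arrays, and 2612, 3571 and 2919 in 7 d IR arrays, against 1914, 1529 and 1732 in 7 d sham arrays. It had a change of 0.44 at 2 d (adjusted p = 0.155) and rose by 0.74 at 7 d (adjusted p = 0.0152), so the day on which Rhoa passed differed between its 2 probe sets.

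The remaining GTPase genes did not pass on their main probe sets. Rac1, which drives sheet-like protrusions, had changes of 0.29 and 0.30 and a mean effect with adjusted p = 0.0509, and its dimmer probe set rose by 0.75 at 7 d (adjusted p = 0.0131). Iqgap1, a scaffold that binds Rac1 and Cdc42, had changes of 0.28 and 0.22, and its dimmer probe set rose by 0.74 and 0.65 (adjusted p = 0.0285 and 0.0178). Rhoc, a close relative of Rhoa, had changes of 0.26 and 0.41. Cdc42, which drives thin protrusions, had changes of 0.10 and 0.29 on its main probe set and of 0.14 and 0.13 on the other, and none of these passed. Over all members, 22 further probe sets of 14 genes were tested. They shared the sign of the main probe set in 22 cases at 2 d and in 20 at 7 d (the others were Rdx and Tpm3). Of the 22, 8 passed as higher at 2 d and 12 at 7 d, with none lower, where 1.88% and 6.22% of all probe sets rose. Tpm3 and Marcks each gave several of the 22, so these probe sets are not independent of each other.

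The design allows a direct test of whether the IR effect differs between the days. No actin gene passed it (limma, 0 of 32, with 1 at an unadjusted p under 0.05), where 0.0095% of all probe sets did. Of all 10527 probe sets 752 had an unadjusted p under 0.05. The lowest p belonged to Rhoa, with a difference of -0.64 ± 0.23 (7 d minus 2 d; adjusted p = 0.573). The change was larger at 2 d for 21 of the 32 genes, and 48.2% of all probe sets had a positive difference (7 d minus 2 d). Between sham groups 7 d over 2 d gave 0 calls among the members (5 at an unadjusted p under 0.05). Of all 10527 probe sets 0.076% passed and 992 had an unadjusted p under 0.05. The member count was 1 without 7 d sham replicate 82 (Rhoa). Between IR groups 7 d over 2 d gave 0 member calls (1 at an unadjusted p under 0.05). Of all 10527 probe sets 3.45% passed and 1722 had an unadjusted p under 0.05. The member count was 1 without 2 d IR replicate 69 or without 2 d sham replicate 72 (Marcks both times, adjusted p = 0.0377 and 0.0368). The comparisons share groups, so their counts are not independent of each other.

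On each day the sarcomeric relatives of these genes were lower or did not pass. Of 13 muscle paralogs listed, 12 were tested (Actc1 was present only on probe sets with several symbols). At 2 d 1 fell and none rose, and at 7 d 5 fell and none rose, with median changes of -0.27 and -0.36. In the mean effect 7 fell and 1 rose (Tpm2, a beta-tropomyosin of muscle, 0.65). The share of all probe sets that fell was 0.589% at 2 d, 5.84% at 7 d and 10.5% in the mean effect. Cap2, the muscle form of Cap1, fell by 0.72 ± 0.17 at 2 d (adjusted p = 0.0435), with signals of 3246, 4320 and 2859 in 2 d IR arrays, against 5730, 5175 and 6505 in 2 d sham arrays. At 7 d Myh6 fell by 0.79, Actn2 by 0.75, Myl3 by 0.46, Myh7 by 0.39 and Tpm1 by 0.37 (adjusted p from 0.0056 to 0.0374). These encode cardiac myosin heavy chains, sarcomeric alpha-actinin, a ventricular light chain and the main cardiac tropomyosin. Actn2 read 15495, 18223 and 17781 in 7 d IR arrays, against 27360, 25541 and 34429 in 7 d sham arrays without overlap. Myl2, the ventricular regulatory light chain and brightest of those that did not pass on either day, had changes of -0.16 and -0.34. Acta1, the skeletal actin, had changes of -0.25 and 0.02, and Tpm2 of 0.48 and 0.81, none of which passed. Single arrays decided these counts. The 7 d count was 1 without 7 d sham replicate 82, 2 without 7 d IR 44 and 3 without 7 d IR 47. The 2 d count was 2 without 2 d IR 73 or 7 d sham 82, and 0 without 2 d IR 69 or 76, 7 d IR 47, 7 d sham 80 or 81, or any one of the 2 d sham arrays.

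**Figure D4:**
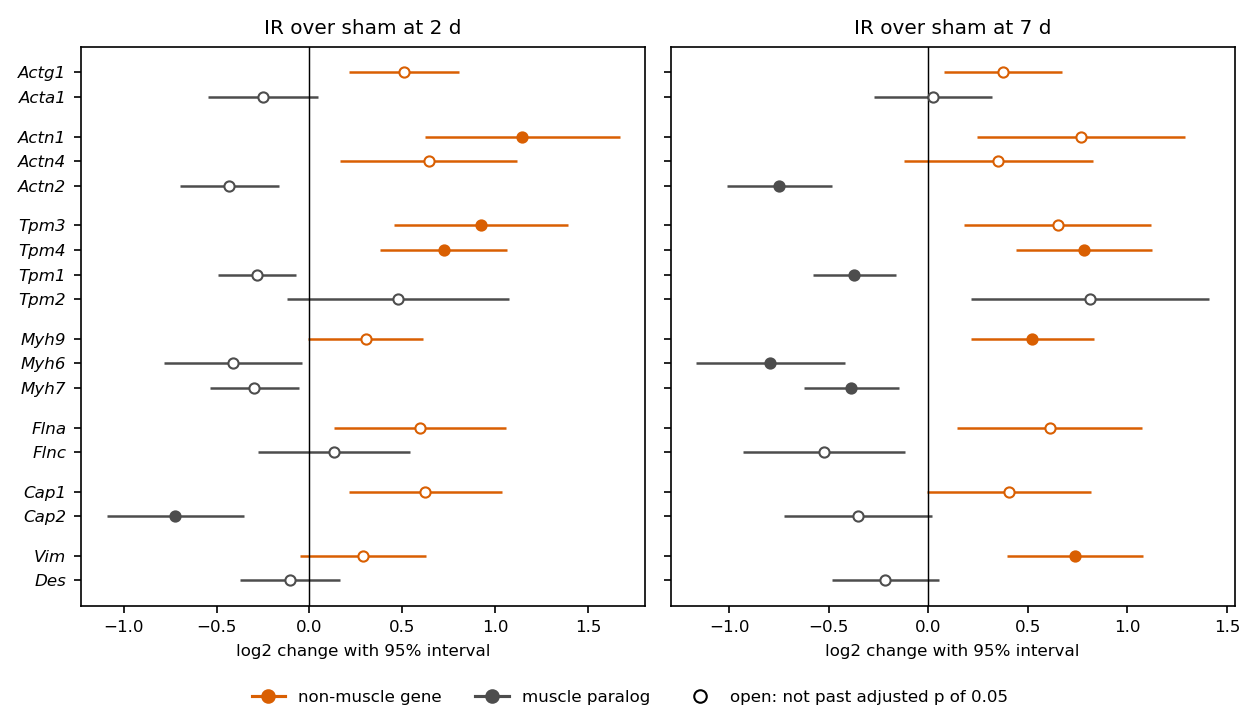
Log2 change in IR over sham with 95% interval (x axis) at 2 d (left) and 7 d (right) for non-muscle actin genes in orange and their muscle paralogs in grey, in families; open points did not pass an adjusted p of 0.05. The non-muscle genes lie right of 0 in every family shown, whereas Actn2, Tpm1, Myh6, Myh7, Cap2 and Des lie left of it on both days; Tpm2 lies to the right.

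A wider list of 81 other actin regulators was also read, of which 65 were tested. At 2 d 4 rose and none fell, with a median of 0.25, and at 7 d 11 rose and 1 fell, with a median of 0.29. In the mean effect 29 rose and 2 fell. Over all probe sets 1.88% rose and 0.589% fell at 2 d, and 6.22% rose and 5.84% fell at 7 d. In the mean effect these shares were 12.4% and 10.5%. The 2 d genes were Coro1a (1.12, a coronin of leukocytes that binds Arp2/3), Twf1 (1.07, twinfilin, a monomer-binding and capping protein), Cnn2 (0.69, a calponin) and Arhgdib (0.66), with adjusted p from 0.0223 to 0.0431. Coro1a read 2569, 1732 and 1633 in 2 d IR arrays, against 643, 785 and 952 in 2 d sham arrays. At 7 d the largest rises were Tes (1.46, testin of focal adhesions), Dbn1 (1.12, drebrin), Coro1c (0.78, a broadly expressed coronin) and Myh10 (0.70, a second non-muscle myosin heavy chain), with adjusted p from 0.0095 to 0.0257. Tes was dim, with 1001, 734 and 645 in 7 d IR arrays, against 242, 127 and 126 in 7 d sham arrays, so 2 sham signals lay below the pseudocount and the size of its change is uncertain. Myh10 read 2350, 2174 and 2112 in 7 d IR arrays, against 1429, 1306 and 1135 in 7 d sham arrays. Myl12a, a regulatory light chain, fell by 0.36 at 7 d (adjusted p = 0.0309), and had a change of 0.11 at 2 d. Fhl2, a LIM protein abundant in cardiomyocytes and the brightest regulator that did not pass, had changes of -0.37 at 2 d, with all IR arrays below sham, and -0.40 at 7 d (adjusted p = 0.161 and 0.0875). Itgb1, the beta 1 integrin chain, had a change of 0.23 at 7 d (adjusted p = 0.346). In 7 d over 2 d IR hearts 4 of the 65 rose and none fell, where 3.45% of all probe sets passed in either direction. The 4 were Add3, Cnn3, Myh10 and Rhoj, with rises of 0.73 to 0.95. Srf had changes of -0.07 and -0.26, neither of which passed. The 7 d count of rises was 0 without 7 d sham replicate 82, 2 without 7 d IR 44 and 4 without 7 d IR 47. The fall of Myl12a did not pass without 7 d sham 82 or any one of the 7 d IR arrays. The 2 d count was 0 without 2 d IR replicate 69, 2 d sham 71 or 2 d sham 72, 2 without 2 d IR 76 or 2 d sham 74, 10 without 7 d sham 82 and 14 without 2 d IR 73.

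Lists of cell type markers were read as well, and their calls differed between lists and days. Of 11 myeloid and leukocyte markers tested, 8 rose at 2 d and 8 at 7 d, with median changes of 1.01 and 0.95. Their summed signal was 70986 to 99908 in 2 d IR arrays, against 32943 to 49259 in 2 d sham arrays, and 76126 to 83290 in 7 d IR arrays, against 33532 to 53764 in 7 d sham arrays. Replicate 69 had the highest myeloid mean of the 2 d IR arrays (12.44 against 11.52 and 11.79) and replicate 82 the lowest of the 7 d sham arrays (10.68 against 11.28 and 11.20), as for the actin genes. Replicate 82 was also lowest of 7 d sham for fibroblast (11.94 against 12.77 and 12.87) and smooth muscle markers (11.04 against 11.49 and 11.19). On the mean of those lists replicate 69 was not the highest 2 d IR array. By summed signal replicate 69 was highest of 2 d IR for fibroblast markers (107432 against 91368 and 104858). For smooth muscle markers the sum of replicate 82 was not the lowest of 7 d sham (41725 against 48658 and 38843). Endothelial markers did not have replicate 82 lowest (11.75 against 11.56 and 11.79). On cardiomyocyte markers replicate 69 was lowest of 2 d IR (14.47 against 14.95 and 14.81) and replicate 82 highest of 7 d sham (15.11 against 14.95 and 14.86). Of 11 fibroblast markers none passed at 2 d and 6 rose at 7 d, with sums of 204048 to 267825 in 7 d IR arrays, against 93456 to 165745 in 7 d sham arrays. At 2 d 9 of the 11 fibroblast changes were positive, with a median of 0.32. Their sums were 91368 to 107432 in 2 d IR arrays, against 76757 to 86707 in 2 d sham arrays, without overlap. Smooth muscle markers rose in 2 of 8 cases at 7 d and endothelial markers in 1 of 6, and neither list had a call at 2 d. For all these marker lists the shares over all probe sets are 1.88% higher and 0.589% lower at 2 d. At 7 d they are 6.22% higher and 5.84% lower. Of the 2 platelet markers tested Pf4 rose at 2 d (0.90; adjusted p = 0.0274), and the 2 red cell markers tested had no call on either day. Of 4 atrial markers none passed at 2 d and Myl7, an atrial light chain, fell by 1.75 at 7 d (adjusted p = 0.0366). The median change of these 4 was -0.57 at 2 d and -0.67 at 7 d, and 1.24 in 7 d over 2 d sham hearts, where none passed. Of 10 cardiomyocyte markers 1 fell at 2 d and 4 fell at 7 d, with sums of 303393 to 330011 in 7 d IR arrays, against 401846 to 466346 in 7 d sham arrays. Myh6, Actn2 and Myl2 are in both this list and the muscle paralogs, and Des is in both the paralogs and the smooth muscle list. These lists are therefore not independent of each other. Left-out arrays moved these counts too. The myeloid count was 1 at 2 d without 2 d IR 69, 2 d sham 71 or 2 d sham 72, and at 7 d it was 0 without 7 d sham 82, 3 without 7 d IR 44 and 4 without 7 d IR 47. The fibroblast count at 7 d was 1 without 7 d IR 44 or 7 d sham 82 and 2 without 7 d IR 47, and at 2 d it was 3 without 7 d sham 82. The cardiomyocyte count ranged from 0 (without 2 d IR 69, among others) to 4 (without 2 d IR 73) at 2 d and from 1 (without 7 d sham 82) to 6 (without 2 d IR 69 or 73) at 7 d. No marker had a signal of 0 on any array. The part that cell makeup plays in the changes of the actin genes was not tested.

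**Figure D5:**
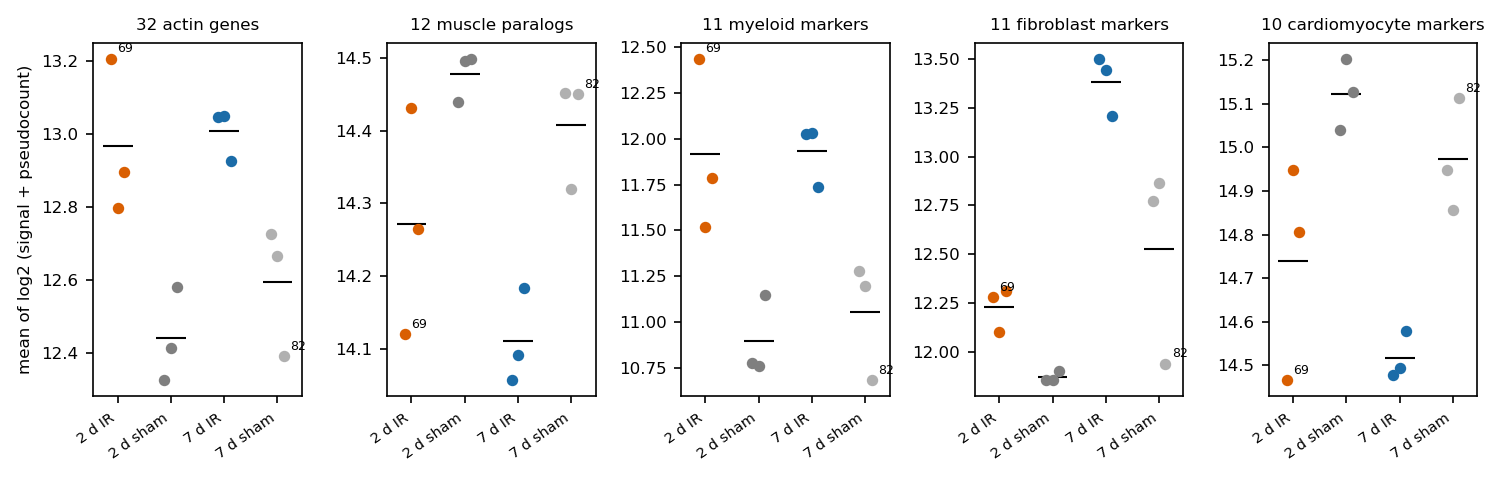
Mean log2 (signal plus pseudocount) of each array over 5 gene lists, as points, with the group mean as a line; replicates 69 and 82 are numbered. Actin genes and myeloid markers are higher in IR than in sham arrays of the same day, with replicate 69 highest of 2 d IR and replicate 82 lowest of 7 d sham in both panels. Replicate 82 is also lowest of 7 d sham for fibroblast markers. For cardiomyocyte markers replicate 69 is lowest of 2 d IR and replicate 82 highest of 7 d sham. The means of muscle paralogs and cardiomyocyte markers, lists that share Myh6, Actn2 and Myl2, are lower in IR arrays.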

How the data were processed

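RNA of 12 rat hearts was measured on one-colour arrays. The deposited values are MAS5 signal intensities, per the submitters' processing notes and the file's values (0.4 to 90743, linear); the scaling target is not stated there. Of 15923 probe sets, 57 controls were left out. GEO's platform annotation gave 12789 probe sets 1 symbol, 312 several and none to 2822; 12754 matched RefSeq by gene ID. Signals were taken as log2(signal + 195), the pseudocount being the median over arrays of the 20th percentile. A probe set was tested (10527 were) where 3 or more arrays had it brighter than their own 40th percentile. limma 3.58.1 in R 4.3.3 fitted group means over all 12 arrays, with eBayes and an intensity trend, two-sided, with Benjamini-Hochberg adjustment over all probe sets. Fold changes are on the log2(signal + 195) scale and understate changes of dim genes. Groups came from titles and descriptions; the written design names 7 d sham in 2 places and 2 d sham in none. No batch is given. Nothing says that rats were pooled. The limma p-values rest on 3 samples a group, with the residual spread estimated over all 12 arrays.

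The members and all gene lists were chosen with earlier results of these data known. Per-array values are given for the called member with the largest change of its role on each day; other members are given by range or change, and regulators and paralogs by up to 4 of the largest calls and up to 2 of the brightest uncalled genes a day. Beta-actin, Vcl, Rhoa, further probe sets of a gene, Srf, the 7 d fall of Myl12a and the 4 regulators that rose between IR days were chosen after their values were seen. The fit was tested on simulated data. Promoters are RefSeq's (GRCr8). Alternatives covered pseudocount, filter, normalization, variance model, control group, choice of probe set and left-out arrays.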

Additional observations from a re-analysis of the deposited data

How the results depend on the processing

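No paired analysis was possible because the groups share no replicate number. Of the counts of called actin genes, that of the mean IR effect (21) stayed within 1.5 times under every alternative, from 18 to 21 without 1 array. The 2 d count (11) was 5 without a filter, 3 without the intensity trend and 6 without 2 d IR replicate 69 and 7 d sham replicate 82 together. It ranged from 0 to 14 without 1 array, with 0 without IR 69, sham 71 or sham 72. Over the whole array 2 probe sets passed in each of those fits. The 7 d count (9) was 5 without a filter, 4 without the trend, 3 without both those arrays and 19 with the sham arrays of both days as control, and ranged from 0 (without sham 82) to 12 without 1 array. For 7 d over 2 d sham the count of 0 was 1 without both arrays and 0 to 1 without 1 array. For 7 d over 2 d IR it was 1 with array weights, with only the groups compared and without both arrays, and 0 to 1 without 1 array. The called changes kept their sign in all fits. Uncalled values changed sign for Rdx and Cdc42. Rdx was -0.023 (2 d), -0.0098 (7 d) and -0.017 (mean effect) with median centring, -0.12 (7 d) and -0.0087 (mean effect) with the mean of all its probe sets, -0.039 (2 d) with the sham arrays of both days, and between -0.081 and 0.18 (2 d), -0.036 and 0.16 (7 d) and -0.010 and 0.12 (mean effect) without 1 array. Cdc42 at 2 d was between -0.035 and 0.17 without 1 array, the lowest without 2 d IR replicate 69, and -0.035 without that array and 7 d sham replicate 82. The cause of these shifts was not tested, except that fits without arrays have fewer samples. The beta-actin ratio kept its sign throughout. The 3 rats per group limit the precision, and signal over background is not given by the deposited values. Counts of the related lists without single arrays were added after the data were seen.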
